A study of Homo sapiens with 8 samples.

Results

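The JNK and p38 stress kinases are mitogen-activated protein kinases, and 10 genes of their cascade are described here: the upstream kinase MAP3K5, the middle kinases MAP2K3, MAP2K4 and MAP2K7, the JNK genes MAPK8 and MAPK9, the p38 genes MAPK11, MAPK13 and MAPK14, and MAPKAPK2, a kinase that p38 activates. They were picked by symbol and are 10 of the 20263 genes in the deposited table. RNA sequencing was performed on PANC-1, an established human cell line derived from a pancreatic duct carcinoma. The cells received 10 μM eupalinolide B (EB), a compound from Eupatorium lindleyanum, or only its vehicle dimethyl sulfoxide (DMSO) for 24 h, with 4 libraries per group. All libraries come from this 1 line at 1 time, and EB was sequenced at 1 dose. The values are TPM, a length-corrected measure in which all genes of a library add up to the same total, and the depth in reads is unknown. The table's columns are headed C and H with a replicate number. C was read as DMSO and H as EB, because the labels hold no other group.

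JNK and p38 are the last kinases of a relay in which a MAP3K phosphorylates a MAP2K and the MAP2K phosphorylates the MAP kinase. MAP2K4 and MAP2K7 activate JNK, whereas MAP2K3 and MAP2K6 activate p38, which MAP2K4 can also reach. The relay responds to oxidative and other stress, and it is switched by phosphorylation, which RNA levels do not measure.

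The promoters of the middle kinases are shown because MAP2K3 was the only kinase of the 8 tested whose RNA passed the test. MAP2K4 and MAP2K7, which activate JNK, did not pass it. Each is the window from 250 bases before to 50 bases after a transcription start given by RefSeq (GRCh38.p14), on the forward strand. Capitals mark matches on either strand to TGANTCA (the AP-1 site), TGACGTCA (the cyclic AMP response element), TGACNNNGC (the core of the antioxidant response element), CCAAT or GGGCGG (the GC box). The windows are chr17:21284461-21284760 for MAP2K3, chr17:12020627-12020926 for MAP2K4 and chr19:7903627-7903926 for MAP2K7.
MAP2K3: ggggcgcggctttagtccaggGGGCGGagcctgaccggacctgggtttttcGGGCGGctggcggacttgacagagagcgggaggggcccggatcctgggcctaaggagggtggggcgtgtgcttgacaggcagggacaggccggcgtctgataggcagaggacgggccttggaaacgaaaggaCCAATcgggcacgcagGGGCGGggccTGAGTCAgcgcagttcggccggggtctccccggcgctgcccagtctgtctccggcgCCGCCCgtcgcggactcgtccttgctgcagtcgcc
MAP2K4: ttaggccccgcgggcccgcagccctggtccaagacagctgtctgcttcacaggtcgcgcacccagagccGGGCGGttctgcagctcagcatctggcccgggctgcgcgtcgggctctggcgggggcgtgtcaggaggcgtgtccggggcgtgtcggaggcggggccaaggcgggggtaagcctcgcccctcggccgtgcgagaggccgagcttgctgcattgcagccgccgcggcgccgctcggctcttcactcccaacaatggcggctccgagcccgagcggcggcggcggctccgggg
MAP2K7: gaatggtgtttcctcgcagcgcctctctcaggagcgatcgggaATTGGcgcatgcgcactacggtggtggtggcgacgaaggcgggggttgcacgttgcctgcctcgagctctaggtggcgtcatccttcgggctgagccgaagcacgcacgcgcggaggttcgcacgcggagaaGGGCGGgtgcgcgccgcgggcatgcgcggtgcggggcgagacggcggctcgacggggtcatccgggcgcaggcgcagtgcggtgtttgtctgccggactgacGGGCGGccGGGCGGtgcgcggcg

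MAP2K3 was the only one of the 9 genes with a RefSeq window that held TGANTCA. The match, TGAGTCA, begins 41 bases before the start site, at position -41, and 7.71% of all 35116 promoter windows hold this motif. MAP2K3 also held CCAAT at position -67 and GC boxes. MAP2K7 held CCAAT on the opposite strand, and MAP2K4 held a GC box and none of the other letters. Across the 9 genes, CCAAT was present in 4 (34.6% of all windows), GGGCGG in 9 (45% of all windows), TGACNNNGC in 1 (13.3% of all windows) and TGACGTCA in 0 (1.85% of all windows). MAPK9, MAP3K5 and MAP2K3 have more than 1 window, which raises their chance of a match. The percentages are per window and the counts per gene. The other MAP2K3 window, chr17:21287786-21288085, held none of these motifs and is not printed. A match describes these letters and is not evidence that a factor binds.

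Of the 10 kinases, 8 passed the filter, 1 TPM or more in 4 libraries or more, and were tested among 11725 genes with limma on log2(TPM + 1). MAP2K3 was the only one called higher in EB at an adjusted p under 0.05, which is 1 of 8 where 15.2% of all tested genes were called higher. None of the 8 was called lower (0 at an unadjusted limma p under 0.05), where 25.1% of all tested genes were. The study names a p of 0.05 and a log2 fold change of 1.5 as its thresholds, and these were read here as an unadjusted p and a change in either direction. By these limma calls 0 of the 8 passed (1 at an unadjusted p under 0.05 alone), where 2.08% of all tested genes did. In all 10 kinases the EB and DMSO libraries overlapped in TPM as deposited, whereas in 36.8% of tested genes they did not. With mitochondrial genes left out and TPM rescaled, the libraries of MAPK8 and MAPK9 did not overlap. In both, EB lay below DMSO. On that scale limma called 4840 of 11712 tested genes lower in EB. The share of all genes without overlap was not computed there, and the 36.8% belongs to the deposited values. Whether this separation is particular to the JNK genes was therefore not tested. As deposited, the median log2 fold change was 0.11 for the 8 kinases, with 4 positive and 4 negative, and -0.11 for all tested genes. In bulk cultures, fewer cells of a kind and less RNA per cell cannot be told apart. The methods state 4 biological replicates and elsewhere triplicates, so the p-values measure the spread between these libraries.

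The libraries differed in ways that touch these values. The 13 mitochondrial genes took 17.01% to 39.0% of TPM in DMSO and 11.6% to 20.3% in EB, with the highest share in DMSO replicate 4. Since TPM has a fixed sum, this leaves less for every nuclear gene in that library, and 8 of the 10 kinases had their lowest DMSO value there. With mitochondrial genes left out and TPM rescaled, the median of all genes moved from -0.11 to -0.28, and with median-ratio scaling to 0.01. Among all genes, 1785 were called higher and 2944 lower as deposited, 3146 and 3001 with median-ratio scaling, and 1440 and 4840 with nuclear genes only. Of the duct markers, KRT8, KRT18 and KRT19 were abundant while KRT7 was at or near 0, and their sum was 991 to 1454 TPM in DMSO and 3208 to 3592 in EB. Leukocyte, acinar and islet markers were at or near 0, and the fibroblast markers summed to 64.0 to 91.8 TPM in DMSO and 38.6 to 50.4 in EB, nearly all from COL1A2 with DCN at 0. The part of these shifts in the results was not tested.

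**Figure D1:**
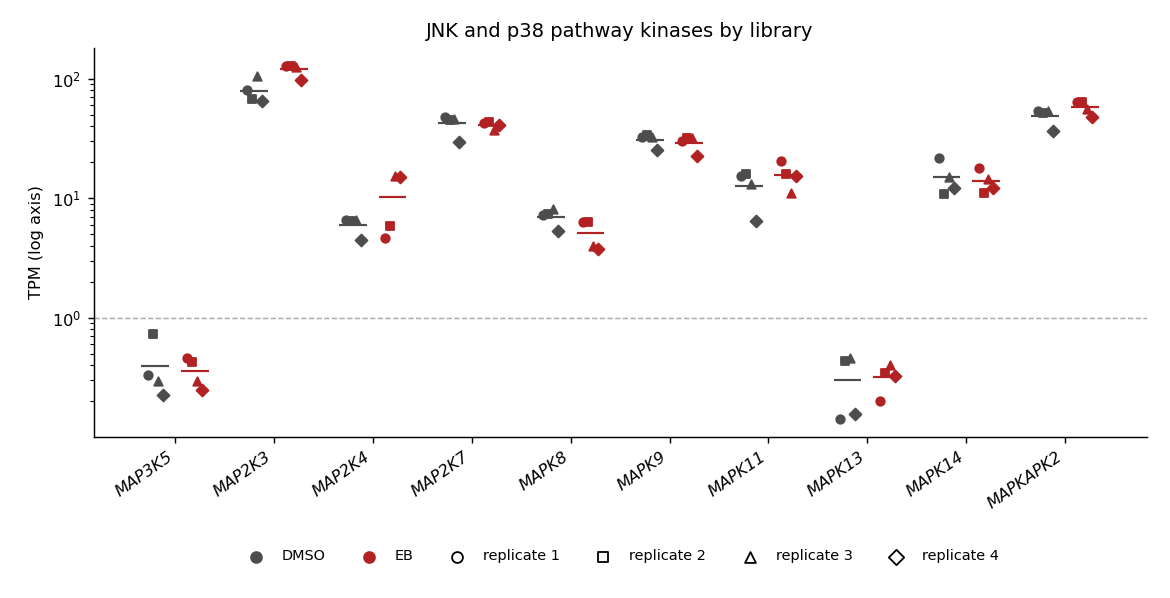
TPM of the 10 kinases (log axis) in each of 4 DMSO (grey) and 4 EB (red) libraries, with symbols for replicate numbers, horizontal lines for group means and a dashed line at a TPM of 1. MAP2K3 lay highest in both groups, MAP3K5 and MAPK13 stayed below 1, and the EB libraries of MAP2K4 split into a low and a high pair.

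Levels spanned a wide range, and since TPM is per length they can be ordered between genes. In DMSO, MAP2K3 was highest at a mean of 79.7 ± 18.5 TPM (SD, n = 4), with every library above those of MAPKAPK2 (48.8 ± 8.38). MAPKAPK2, MAP2K7 and MAPK9 followed with overlapping libraries between neighbours, and all lay above MAPK14 (14.9 ± 4.86 TPM). MAPK14, MAPK11, MAPK8 and MAP2K4 again overlapped from neighbour to neighbour. MAP3K5 (0.396 ± 0.231 TPM) and MAPK13 (0.299 ± 0.173 TPM) were lowest and did not separate from each other. In EB the first 4 places were kept by MAP2K3, MAPKAPK2, MAP2K7 and MAPK9, now without overlap between neighbours, while MAPK11, MAPK14, MAP2K4 and MAPK8 overlapped.

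MAP3K5, also called ASK1, is a MAP3K held inactive by reduced thioredoxin. Its DMSO libraries held 0.328, 0.735, 0.294 and 0.224 TPM and its EB libraries 0.460, 0.421, 0.296 and 0.248 TPM. The EB values all lay within the DMSO range, and the gene was below the filter's 1 TPM in every library. Its mean level did not separate the groups (exact permutation p = 0.857, two-sided, n = 4 per group). It lies at chr6:136557046-136793097 on the reverse strand of hg38.

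MAP2K3, also called MKK3, phosphorylates p38 and lies at chr17:21284672-21315232 on the forward strand. Its TPM was 80.8, 67.5, 105 and 65.2 in DMSO and 129, 127, 125 and 96.9 in EB. A single pair of libraries crossed: DMSO replicate 3 lay above EB replicate 4, and the other EB libraries were above all DMSO libraries. MAP2K3 rose by a log2 fold change of 0.59 (SE 0.18, 95% interval 0.20 to 0.98, a fold of 1.51 on the TPM + 1 scale, limma adjusted p = 0.0237). The exact permutation test of this gene alone gave p = 0.0571, two-sided, n = 4 per group, where 0.0286 is the smallest p that 70 assignments allow. The call was lost when the trend of each library on transcript length and GC content was removed (log2 fold change 0.43, limma adjusted p = 0.0796). It was also lost without DMSO replicate 2 (adjusted p = 0.0703), without EB replicate 1 (adjusted p = 0.0629), without EB replicate 2 (adjusted p = 0.0552) or without EB replicate 3 (adjusted p = 0.0631), while the fold change stayed between 0.50 and 0.73 with any 1 library left out.

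MAP2K4, also called MKK4, phosphorylates JNK and can act on p38. It lies at chr17:12020829-12143830 on the forward strand. Its DMSO libraries held 6.59, 6.41, 6.60 and 4.43 TPM and its EB libraries 4.68, 5.89, 15.4 and 15.1 TPM. EB replicates 1 and 2 were within the DMSO range, and EB replicates 3 and 4 were far above it. The fold change was accordingly imprecise at 0.54 (SE 0.34, 95% interval -0.22 to 1.30, limma adjusted p = 0.232), and the coefficient of variation was 17.5% in DMSO and 56.2% in EB. The annotation names a pseudogene, MAP2K4P1, that has no row in the table, and whether reads were shared with it was not tested.

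MAP2K7, also called MKK7, is specific for JNK. It lies at chr19:7903843-7914478 on the forward strand, and a gene on the opposite strand overlaps its exons, so that its reads can be told apart only if strand was used in counting, which is not given in the sources used here. Its TPM was 47.6, 45.5, 46.1 and 29.6 in DMSO and 42.3, 43.4, 37.0 and 40.8 in EB. DMSO replicate 4 was lowest and the EB libraries lay between it and the others. The fold change was -0.02 (SE 0.16, 95% interval -0.39 to 0.35, limma adjusted p = 0.927).

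MAP2K3 was the most abundant of the MAP2K genes that feed JNK and p38. It took 61.6 ± 4.82% (SD, n = 4) of the summed TPM of MAP2K3, MAP2K4, MAP2K6 and MAP2K7 in DMSO and 69.7 ± 4.37% in EB, with overlapping libraries. The share of MAP2K7 was 29.0% to 37.6% in DMSO and 20.8% to 26.7% in EB and did not overlap. This share was singled out after its values were seen and was given no test, and since the shares sum to a fixed total it also moves with MAP2K3, while MAP2K7 itself had a log2 fold change of -0.02. MAP2K6, the other p38 activator, failed the filter because its TPM was 0.96 to 1.53 in DMSO and only 0.0807 to 0.296 in EB. Without a filter its log2 fold change was -0.93 (limma adjusted p = 0.0014). This rests on 1 setting, in a gene of about 1 TPM or less whose transcript of 13405 nucleotides falls in the longest length class, where the median was -0.54.

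MAPK8 encodes JNK1 and lies at chr10:48306639-48439360 on the forward strand. It held 7.26, 7.44, 8.04 and 5.28 TPM in DMSO and 6.35, 6.34, 3.94 and 3.78 TPM in EB. EB replicates 3 and 4, the same libraries that were high for MAP2K4, were below every DMSO library, and EB replicates 1 and 2 were above DMSO replicate 4. The log2 fold change was -0.41 (SE 0.19, 95% interval -0.83 to 0.02, limma adjusted p = 0.113). MAPK8 was called lower with nuclear genes only (-0.58, adjusted p = 0.0122) and without DMSO replicate 4 (-0.52, adjusted p = 0.0392). With the length and GC trend removed its value was -0.12 (adjusted p = 0.668).

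MAPK9 encodes JNK2 and lies at chr5:180233143-180292099 on the reverse strand. Its TPM was 32.3, 33.5, 32.7 and 25.4 in DMSO and 30.0, 31.9, 31.8 and 22.6 in EB. Replicate 4 was lowest in each group and the rest were close together. The log2 fold change was -0.09 (SE 0.15, 95% interval -0.43 to 0.25, limma adjusted p = 0.653). With nuclear genes only it was -0.27 (adjusted p = 0.0563). MAPK10, the JNK gene known mainly from neurons, was listed at 0 in all 8 libraries. MAPK9 thus made up 81.6 ± 1.04% of JNK TPM in DMSO and 85.2 ± 2.88% in EB (SD, n = 4).

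A ratio within 1 library does not depend on the scaling between libraries. MAPK9 over MAPK8 was 4.44, 4.50, 4.07 and 4.82 in DMSO and 4.72, 5.04, 8.09 and 5.97 in EB. The EB ratios lay above all DMSO ratios except for EB replicate 1, which was below DMSO replicate 4. The difference was 0.39 on the log2 scale (exact permutation p = 0.0571, adjusted p = 0.229 over 4 ratios, two-sided, n = 4 per group). MAP2K7 over MAP2K4 was 7.22, 7.09, 6.98 and 6.68 in DMSO and 9.05, 7.37, 2.41 and 2.70 in EB. The DMSO ratios were nearly equal, while the EB libraries fell on both sides of them, with a difference of -0.61 (exact permutation p = 0.429, adjusted p = 0.571 over 4 ratios).

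**Figure D2:**
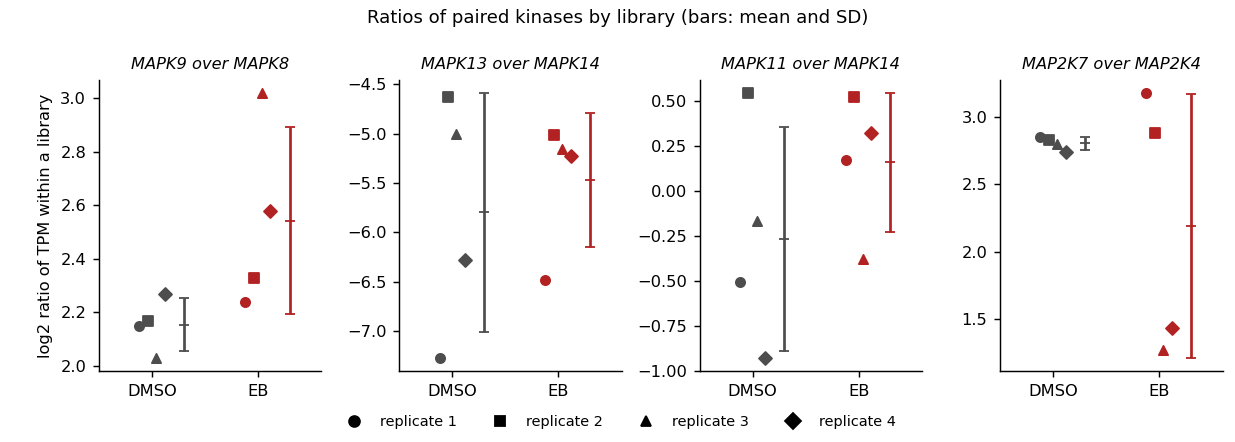
Log2 ratios of TPM between paired kinases within each library, in DMSO (grey) and EB (red), with symbols for replicate numbers and bars for the mean and SD (n = 4), each panel on its own scale. The groups overlapped in all 4 ratios, and MAP2K7 over MAP2K4 was tight in DMSO and split in EB.

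The p38 kinases differ in where they are expressed: MAPK14 (p38α) is found in most cells, MAPK11 (p38β) is its close relative, and MAPK13 (p38δ) is typical of epithelia. MAPK14, at chr6:36027782-36111236 on the forward strand, held 21.8, 10.9, 14.9 and 12.2 TPM in DMSO and 18.0, 11.1, 14.5 and 12.2 TPM in EB. Replicate 1 was highest in both groups and all EB values lay within the DMSO range. The log2 fold change was -0.07 (SE 0.22, 95% interval -0.56 to 0.43, limma adjusted p = 0.833).

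MAPK11, at chr22:50263713-50270767 on the reverse strand, held 15.3, 15.8, 13.2 and 6.41 TPM in DMSO and 20.3, 15.9, 11.1 and 15.2 TPM in EB. DMSO replicate 4 stood below the rest and EB replicate 1 above. The log2 fold change was 0.33 (SE 0.27, 95% interval -0.28 to 0.93, limma adjusted p = 0.36), and without DMSO replicate 4 it was 0.06 (adjusted p = 0.815). MAPK13, at chr6:36127809-36144524 on the forward strand next to MAPK14, held 0.142, 0.437, 0.460 and 0.157 TPM in DMSO and 0.202, 0.341, 0.405 and 0.326 TPM in EB. All its libraries were below 1 TPM and the EB values lay within the DMSO range, and without a filter the log2 fold change was 0.03 (limma adjusted p = 0.874).

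MAPK12 (p38γ), which was not among the 10, was the most abundant p38 RNA, at 56.0 ± 1.89% of p38 TPM in DMSO and 55.5 ± 4.30% in EB (SD, n = 4). MAPK14 took 23.9 ± 5.60% and 20.7 ± 2.07%, MAPK11 19.7 ± 3.63% and 23.4 ± 4.56%, and MAPK13 0.481 ± 0.251% and 0.489 ± 0.158%. The libraries of the groups overlapped in the share of every p38 gene. The log2 ratio of MAPK11 over MAPK14 differed by 0.43 (exact permutation p = 0.314, adjusted p = 0.571 over 4 ratios) and that of MAPK13 over MAPK14 by 0.33 (exact permutation p = 0.714, adjusted p = 0.714).

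MAPKAPK2, also called MK2, is activated by p38 and acts on HSPB1 and on proteins that bind unstable mRNAs. It lies at chr1:206684905-206734281 on the forward strand. Its TPM was 53.9, 51.3, 53.8 and 36.4 in DMSO and 63.4, 63.5, 55.4 and 48.0 in EB. Only EB replicate 4 fell within the DMSO range, and DMSO replicate 4 stood below all others. The log2 fold change was 0.24 (SE 0.16, 95% interval -0.12 to 0.60, limma adjusted p = 0.26). It was called higher with median-ratio scaling (0.37, adjusted p = 0.00594), and it was 0.06 with nuclear genes only (adjusted p = 0.647).

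**Figure D3:**
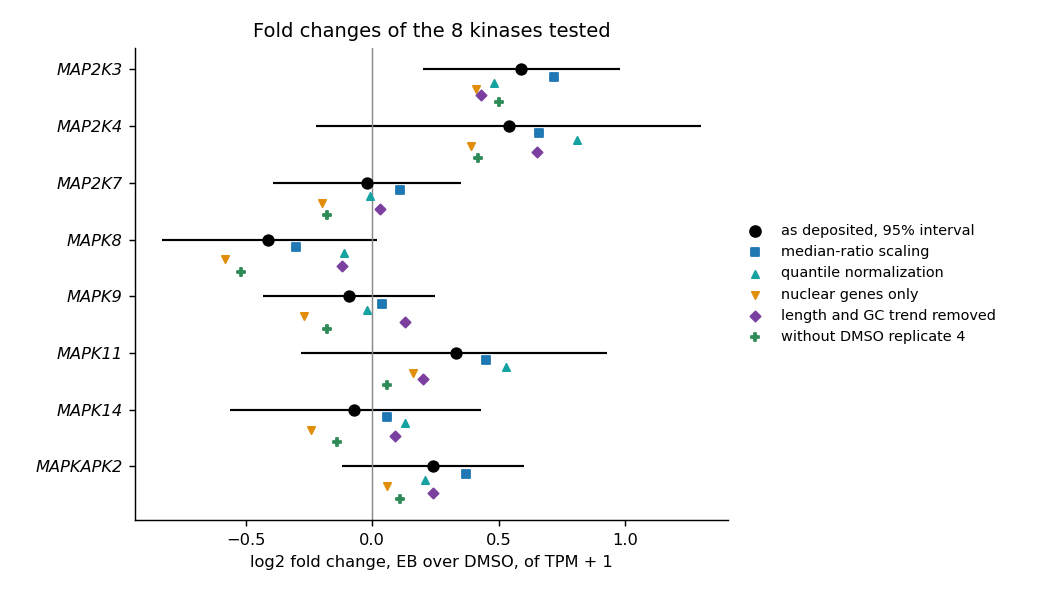
Log2 fold change of EB over DMSO (TPM + 1) for the 8 kinases tested, with limma's 95% interval (black) and the values under 5 other settings (coloured). Only the interval of MAP2K3 lies wholly above 0, and MAPK9, MAPK14 and MAP2K7 change sign between settings.

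The other genes of the cascade were taken from a list of 70, of which 62 were tested. Of these, 8 were higher and 22 lower in EB at a limma adjusted p under 0.05, which is 12.9% and 35.5% where 15.2% and 25.1% of all genes were called. Their median log2 fold change was -0.33, against -0.11 for all tested genes. The count of higher genes was 13 with median-ratio scaling, where 3146 of 11725 genes were higher. That of lower genes was 37 with nuclear genes only and 33 without DMSO replicate 4, where 4840 of 11712 and 4333 of 11725 genes were lower. It was 14 with the length and GC trend removed and 14 without DMSO replicate 2, where 2351 of 11685 and 2088 of 11725 genes were lower. With the trend removed, their median was -0.15, against -0.11 for all genes. The transcripts of the lower genes had a median length of 5189 nucleotides and those of the higher genes 1849, against 3222 for all nuclear genes tested. Those of the 32 cascade genes called in neither direction had a median of 4788, so the lower genes were not much longer than these.

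**Figure D4:**
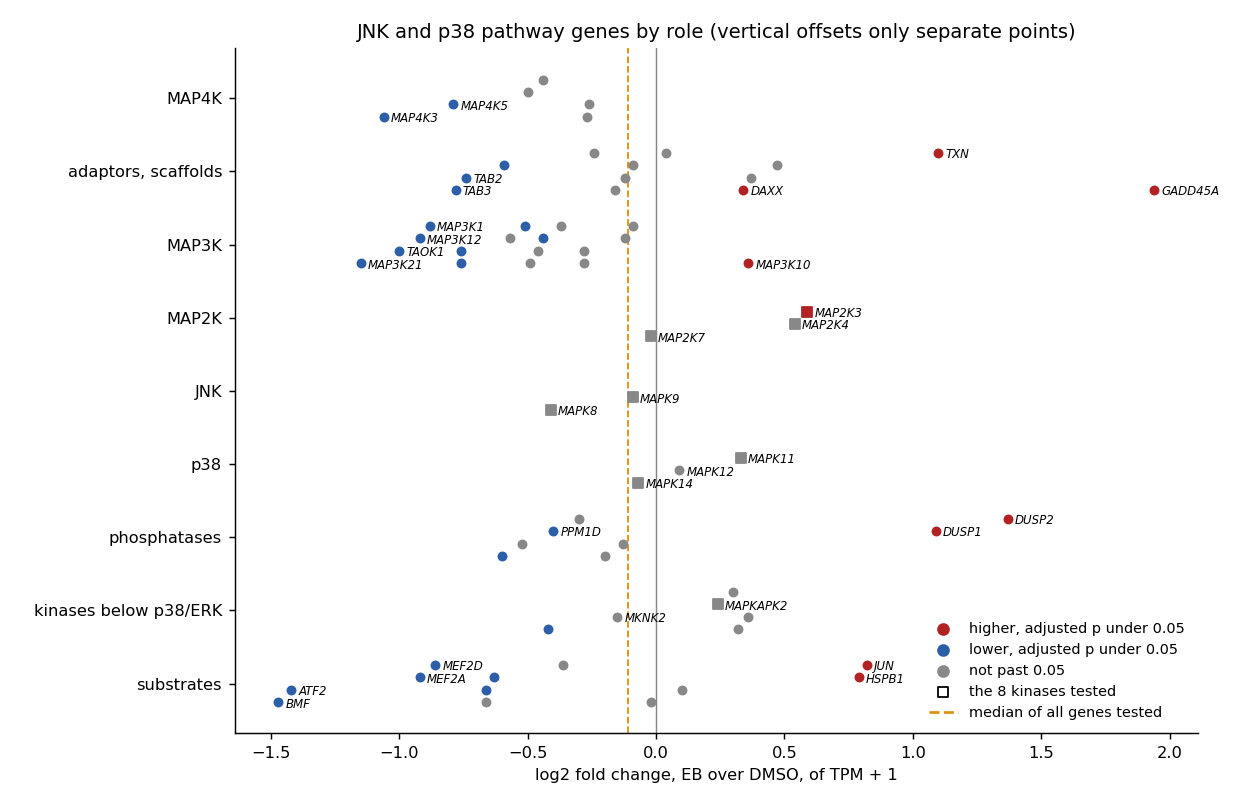
Log2 fold change of EB over DMSO (TPM + 1) of 70 tested cascade genes by role, coloured by limma call, with squares for the 8 kinases and a dashed line at the median of all tested genes (-0.11). The MAP3K row lies mostly to the left of that line, the MAP2K row does not, and GADD45A has the highest value at 1.94.

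Of 17 other MAP3K genes, which receive the stress signal, 8 were lower (47.1%, against 25.1% of all tested genes), 1 was higher (5.88%, against 15.2%) and 8 did not pass. With the length and GC trend removed, 5 were lower and 1 was higher, where 2351 and 1224 of 11685 genes were. MAP3K21, a mixed-lineage kinase, fell from 2.36 ± 0.484 to 0.519 ± 0.315 TPM (log2 fold change -1.15, limma adjusted p = 0.00109). All its EB libraries were below 1 TPM (0.22 to 0.962), so it passed the filter through DMSO alone. Its fold change depended on the setting, from -2.10 to -0.86 over 16 alternatives. MAP3K15, counted among the lower genes, also passed through DMSO alone (0.532 to 0.694 TPM in EB, 1.53 to 2.02 in DMSO). TAOK1, a kinase upstream of p38, fell from 13.1 ± 2.68 to 5.99 ± 0.516 TPM (log2 fold change -1.0, limma adjusted p = 0.00125). MAP3K12 and MAP3K1, which act on the JNK branch, fell with log2 fold changes of -0.92 and -0.88. The EB libraries of MAP3K1 held 0.92 to 1.45 TPM, so it passed the filter only with its DMSO libraries. The gene that was higher, named after its values were seen, was MAP3K10 (0.36, limma adjusted p = 0.0462).

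Of 6 MAP4K genes tested, which lie above the MAP3Ks, 2 were lower (33.3%, against 25.1% of all tested genes) and 4 did not pass. With the length and GC trend removed, 1 was lower, where 2351 of 11685 genes were. MAP4K5 fell from 23.7 ± 2.20 to 13.4 ± 2.89 TPM (-0.79, limma adjusted p = 0.00426). MAP4K3 fell from 9.18 ± 1.27 to 4.27 ± 2.04 TPM (-1.06, limma adjusted p = 0.0246), and its call was lost under 5 of 17 alternatives, among them removal of the length and GC trend and leaving out DMSO replicate 2 or DMSO replicate 3.

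Among 13 adaptors and regulators, 3 were higher and 3 lower, 23.1% each way, where 15.2% and 25.1% of all tested genes were. With the length and GC trend removed, 2 were higher and 2 lower, where 1224 and 2351 of 11685 genes were. GADD45A, a stress-induced protein that binds MAP3K4, rose from 27.8 ± 6.02 to 108 ± 12.0 TPM, the largest rise among the 62 tested (log2 fold change 1.94, limma adjusted p = 7.2e-05). TXN, the thioredoxin that restrains MAP3K5, rose from 255 ± 11.2 to 550 ± 38.5 TPM (1.10, limma adjusted p = 0.00017), while MAP3K5 itself stayed below 1 TPM. TAB2 and TAB3, partners of the kinase TAK1, fell with log2 fold changes of -0.74 and -0.78.

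Of 8 phosphatases that act on JNK, p38 or related kinases, 2 were higher and 2 lower, 25% each way, where 15.2% and 25.1% of all tested genes were. With the length and GC trend removed, 2 were higher and 0 lower by limma (0 also at an unadjusted p under 0.05), where 1224 and 2351 of 11685 genes were. DUSP1 rose from 39.5 ± 9.09 to 84.1 ± 11.5 TPM (1.09, limma adjusted p = 0.00227) and DUSP2 from 3.93 ± 1.5 to 11.5 ± 2.51 TPM (1.37, limma adjusted p = 0.00196). PPM1D, a phosphatase of p38, fell from 6.66 ± 0.892 to 4.82 ± 0.756 TPM (-0.40, limma adjusted p = 0.0463), and this call was lost under 9 of 17 alternatives, with an adjusted p of up to 0.416.

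Of 5 tested kinases that act beside MAPKAPK2 below p38 or ERK, 1 was lower (20%, against 25.1% of all tested genes), MKNK1 (-0.42, limma adjusted p = 0.0448, named after its values were seen), and 0 were higher. With the length and GC trend removed, 1 of these 5 was lower and 1 higher, where 2351 and 1224 of 11685 genes were. MKNK2, the most abundant, held 86.1 to 201 TPM in DMSO and 105 to 145 TPM in EB (-0.15, limma adjusted p = 0.649). Of 12 substrates, 6 were lower (50%, against 25.1% of all tested genes) and 2 higher (16.7%, against 15.2%). With the length and GC trend removed, 5 substrates were lower and 2 higher, where 2351 and 1224 of 11685 genes were. BMF, a cell death protein that JNK phosphorylates, fell from 4.32 ± 1.85 to 0.857 ± 0.300 TPM (-1.47, limma adjusted p = 0.00192), and the transcription factor ATF2 from 28.3 ± 12.6 to 9.31 ± 1.75 TPM (-1.42, limma adjusted p = 0.00367). The EB libraries of BMF held 0.42 to 1.09 TPM, so it passed the filter only with its DMSO libraries (2.5 to 6.28 TPM). MEF2A and MEF2D, transcription factors that p38 phosphorylates, fell with log2 fold changes of -0.92 and -0.86. The 2 that were higher, named after their values were seen, were JUN (131 ± 24.4 to 230 ± 27.2 TPM, limma adjusted p = 0.00438) and HSPB1 (2253 ± 392 to 3841 ± 92.9 TPM, limma adjusted p = 0.00324).

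Transcript length moved with the fold change across all genes. With nuclear genes divided into 10 equal classes by length, the median log2 fold change fell from 0.41 in the shortest class to -0.54 in the longest. MAP2K3 and MAPK11 lay in class 4, whose median was 0.04, MAPKAPK2 in class 5 (-0.10), and MAP2K4 and MAP2K7 in class 6 (-0.17). MAPK14 lay in class 7 (-0.28), MAPK9 in class 8 (-0.35) and MAPK8 in class 9 (-0.44). All 8 kinases lay above the median of their length class, MAPK8 by the least (-0.41 against -0.44). With the length and GC trend removed, MAPK8 was at -0.12, against a median of -0.11 for all genes. The other kinases tested were then at 0.03 to 0.65. The part of length in these values was not tested beyond the alternative fit given above.

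**Figure D5:**
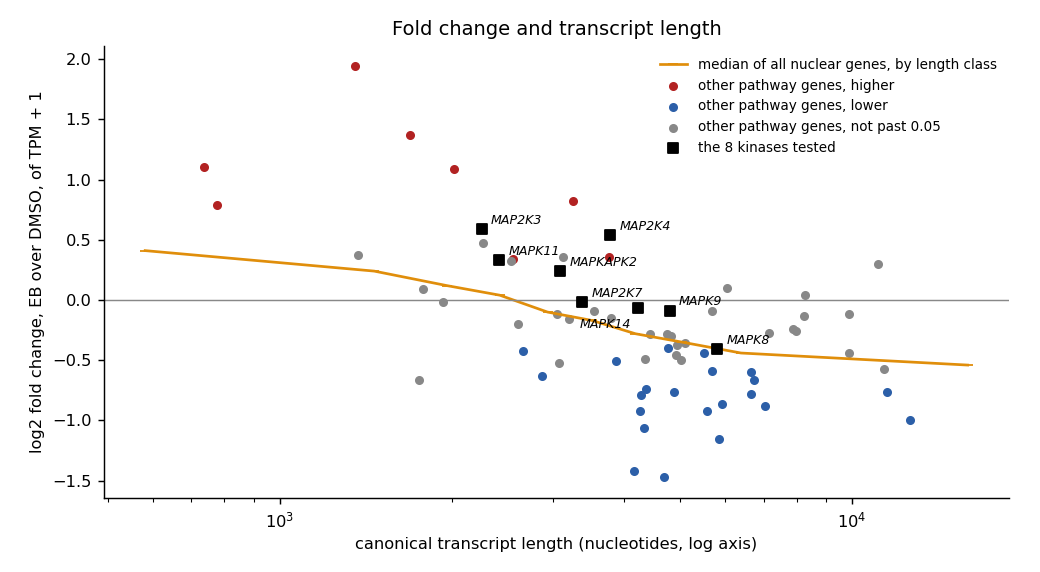
Log2 fold change of EB over DMSO (TPM + 1) against canonical transcript length in nucleotides (log axis), with the median of all nuclear genes by length class (orange line), the 8 kinases (black squares) and other cascade genes coloured by limma call. The line falls from 0.41 to -0.54, MAPK8 lies near it and MAP2K3 and MAP2K4 lie above it.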

How the data were processed

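The authors deposited 1 table of TPM per gene for 4 EB and 4 DMSO libraries of PANC-1 cells. The methods name CLC Genomics Workbench, HISAT2 and StringTie, and both a mouse assembly (GrCM38) and hg38. The identifiers are human, and which step made the TPM is not given in the sources used here. No counts were used, so the depth and the precision it gives are unknown.

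Of 20263 identifiers, 20148 matched a symbol in GENCODE release 44 (hg38), the source of positions and lengths. The groups were compared on log2(TPM + 1) with limma 3.58.1 (R 4.3.3), for genes at 1 TPM or more in 4 libraries or more, with Benjamini-Hochberg adjustment over 11725 genes. Single kinases and 4 ratios were compared by exact permutation tests over 70 assignments. The genes, lists and tests were chosen with earlier results of these data known. Named from each role were up to 4 genes with the largest absolute fold change among those called without overlap, or else the most abundant gene. As alternatives, the pseudocount was set to 0.1, the filter was dropped or raised to 5 TPM, and the fit was repeated after quantile normalization or median-ratio scaling, with nuclear genes only, after removal of the length and GC trend by a spline, with an intensity trend, with a replicate block, and without each library in turn. The fold threshold was also lowered to 1. The fit was tested on simulated data. Promoter windows came from RefSeq (GRCh38.p14), and 9 of 10 genes matched.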

Additional observations from a re-analysis of the deposited data

Results flagged for a closer look

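With 4 libraries a group, a library was marked where its gap to the nearest other, divided by the whole range, exceeded Dixon's 95% critical value. Of 28 groups (kinases and ratios in each condition), 6 were marked. Chance marks about 1 in 20 of independent groups. These groups share libraries, and the ratios are built from the kinases, so the count cannot be set against that rate. DMSO replicate 4 was the low library for MAPK9 (0.868), MAP2K4 (0.926), MAP2K7 (0.906) and MAPKAPK2 (0.873). In this library mitochondrial genes took 39.0% of TPM, against 17.01% to 21.1% in the other DMSO libraries. Rescaled to nuclear genes, MAPK9 in DMSO was 41.1 ± 1.54, MAP2K4 7.92 ± 0.470, MAP2K7 55.4 ± 4.65 and MAPKAPK2 64.4 ± 3.50 (SD, n = 4). Each had a smaller SD than as deposited. DMSO replicate 4 still stood apart for MAP2K7, at 48.5 against 57.3 to 58.3 in the other DMSO libraries. It also stayed the lowest DMSO library for MAP2K4 and MAPKAPK2, but not for MAPK9. The part of the mitochondrial share in these marks was not tested. EB replicate 4 was low for MAP2K3 (0.895), at 96.9 TPM. EB replicate 1 was low for the log2 ratio of MAPK13 over MAPK14 (0.86), at -6.48, in which MAPK13 was below 1 TPM.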

How the results depend on the processing

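MAP2K3 was called higher alone, and the count of kinases called higher was 2 with median-ratio scaling, 0 with the length and GC trend removed and 0 to 1 with a library left out. The count called lower was 1 with nuclear genes only and 0 to 1 with a library left out. Of all 70 tested cascade genes, the 9 called higher became 15 with median-ratio scaling, and the 22 called lower became 38 with nuclear genes only, 14 with the length and GC trend removed and 14 to 34 with a library left out. Among all genes, the 1785 called higher became 3146 with median-ratio scaling. The 2944 called lower became 4840 with nuclear genes only, 2351 with the trend removed and 2073 to 4333 with a library left out. The sign turned for MAPK9 (0.04 with median-ratio scaling, 0.13 with the trend removed, -0.18 to 0.02 with a library left out), MAPK14 (0.06, 0.13 with quantile normalization, 0.09 with the trend removed, -0.19 to 0.12) and MAP2K7 (0.11, 0.03 with the trend removed, -0.18 to 0.04). With nuclear genes only the values were -0.27 for MAPK9 (limma adjusted p = 0.0563), -0.24 for MAPK14 and -0.20 for MAP2K7. None of these kinases was called in either direction, and the cause was not tested. The MAPK13 over MAPK14 difference ranged from -0.16 to 0.71 with a library left out, turning without DMSO replicate 1. The other 3 ratios kept their direction.

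Whether replicate numbers pair the samples was not settled. Deviations of same-numbered libraries correlated at 0.183, 0.0463, -0.0879 and 0.284, and those of different-numbered libraries at -0.238 to 0.126. With the replicate block, MAP2K3 stayed called (0.59, limma adjusted p = 0.0113), MAPK8 was at -0.41 (adjusted p = 0.0542), no kinase changed its call, and the cascade counts were 12 higher and 25 lower. Over all genes, the block gave 2231 higher and 3525 lower calls, against 1785 and 2944 without it. For the ratios, a block cannot change the mean difference in this balanced design. MAPK9 over MAPK8 was higher in EB in 4 of 4 pairs (0.39, exact sign-flip p = 0.125, the smallest that 4 pairs allow, adjusted p = 0.5).

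TPM without counts gives no depth, so small values such as those of MAPK13 and MAP3K5 can be given no counting error. Without the filter their fold changes were 0.03 (limma adjusted p = 0.874) and -0.03 (adjusted p = 0.886).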
